A study of Homo sapiens with 6 samples.

Results

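The NRF2 antioxidant response genes described here are 9 genes chosen by symbol: the transcription factor NFE2L2, its inhibitor KEAP1, and 7 genes of antioxidant and detoxifying enzymes, NQO1, HMOX1, GCLC, GCLM, TXNRD1, SRXN1 and GPX2. All 9 were found by numeric gene ID among the 30727 genes listed, and 8 passed the filter on low counts that 15190 genes passed. GPX2 did not. The RNA came from PANC-1, an established human line of pancreatic ductal carcinoma cells, as poly(A) RNA. The siRNA label of 3 libraries reads SUV420H2 knockdown and that of the other 3 reads control. SUV420H2 is the older name of KMT5C, which methylates lysine 20 of histone H4. All 6 libraries are of 1 cell line with no other treatment named, and the sources used here name neither the kind of control nor the siRNA sequences nor the time of harvest. What follows from lower SUV420H2 and what follows from siRNA treatment itself cannot be told apart.

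NRF2, the protein of NFE2L2, is held at a low level by KEAP1, an adaptor that hands it to the CUL3 ubiquitin ligase for degradation. Oxidants and electrophiles modify cysteines of KEAP1, NRF2 then accumulates, pairs with a small MAF protein and binds antioxidant response elements near genes that make glutathione, reduce thioredoxin and quinones, degrade heme and supply NADPH. The factor is therefore mainly governed as a protein, and its mRNA level need not follow its activity. In pancreatic cancer cells NRF2 is known for its part in resistance to oxidants and drugs.

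The controls held 20863594 to 25931995 counted reads and the knockdown libraries 27007534 to 38022772. The targeted gene KMT5C stood at 9.55, 7.23 and 12.7 CPM (counts per 1000000 reads after TMM scaling) in the controls and at 6.03, 6.11 and 5.86 in the knockdown, a fitted difference of −0.72 in log2 units (SE 0.163, adjusted p by edgeR = 0.00227). Leaving out each library in turn gave −0.88 to −0.50, the smallest fall without control replicate 3, and set against a minimum change of 1.5-fold the fall did not pass (edgeR glmTreat adjusted p = 0.305). Control replicate 3 stood apart from the other controls, with a chi-square per degree of freedom of 11.3 and 13.6 against them and 1.55 between the other two. Of 8 ductal and epithelial markers all passed the filter, with a summed level of 2669 to 3229 CPM in the controls and 6239 to 6454 CPM in the knockdown. The acinar, endocrine, astrocyte, microglia and leukocyte, fibroblast and endothelial marker lists had no gene past the filter and no summed level above 0.810 CPM in any library, with AMY2A, GCG and AQP4 at 0 reads, and 5 neuron markers summed to 5.95 to 6.86 CPM in the controls and 6.39 to 7.00 CPM in the knockdown. The part of these markers in the results below was not tested.

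The genes of the group did not move together. Of the 8 members tested, 3 rose (TXNRD1, GCLM and SRXN1), 4 fell (HMOX1, GCLC, KEAP1 and NQO1) and NFE2L2 did not pass. That is 7 of 8 called, where 67.3% of all tested genes were called, 33.1% higher and 34.2% lower in the knockdown. Changes of at least 2-fold were found for 1 member that rose, TXNRD1, and 2 that fell, HMOX1 and GCLC. Over all tested genes 8.01% rose and 6.01% fell by that much. The median log2 fold change was −0.19 over the 8 members and −0.01 over all tested genes. In the same 7 members the CPM of the groups did not overlap, which held for 71.3% of all tested genes. An exact two-sided permutation test of 3 values against 3 gives p = 0.1 for each of them, the smallest it can give. In bulk RNA a smaller share of cells with a transcript and less of it per cell cannot be told apart.

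**Figure D1:**
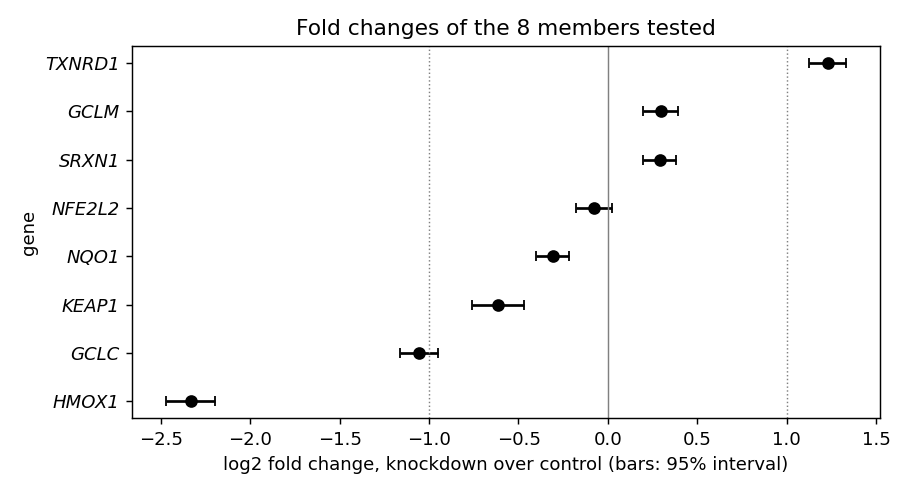
Fitted log2 fold change of each of the 8 tested members (x axis, knockdown over control) with its 95% interval (bars), from edgeR over 3 libraries a group. The dotted lines mark a 2-fold change. HMOX1 and GCLC lie lowest at −2.33 and −1.06, TXNRD1 highest at 1.23, and only the interval of NFE2L2 crosses 0.

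The core of the antioxidant response element, spelled TGACNNNGC, is shown first because it is the sequence through which NRF2 with a small MAF protein is known to reach its targets. It was searched on both strands of the RefSeq promoter windows (GRCh38.p14), which run from 250 bases before to 50 after a start of transcription. Of the 9 members 8 had a window, 11 windows in all; HMOX1 had none. There were 7 matches in 5 windows of 4 genes, KEAP1, GCLM, TXNRD1 and GPX2. Of 35116 promoter windows of the same length, 13.3% held the core. The 7 matches are given below with 10 bases on either side, read along the strand of the match, with the core in capitals. They are lined up to show the fixed letters and the spacer between them.
KEAP1, second start, first match: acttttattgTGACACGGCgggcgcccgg
KEAP1, second start, second match: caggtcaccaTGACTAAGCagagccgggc
GCLM: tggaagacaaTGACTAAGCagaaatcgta
TXNRD1, first start, first match: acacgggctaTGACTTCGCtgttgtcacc
TXNRD1, first start, second match: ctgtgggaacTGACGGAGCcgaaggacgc
TXNRD1, second start: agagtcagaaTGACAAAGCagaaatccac
GPX2: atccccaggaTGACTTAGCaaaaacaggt

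The matches of KEAP1 lie at chr19:10502807-10502835, minus strand, and chr19:10502784-10502812, plus strand, and that of GCLM at chr1:93909446-93909474, plus strand. Those of TXNRD1 lie at chr12:104215670-104215698, plus strand, at chr12:104215761-104215789, minus strand, and at chr12:104286920-104286948, minus strand, and that of GPX2 at chr14:64942849-64942877, plus strand. Counted to the first base of the core along the gene, the match of GCLM began 34 bases before the start, those at the second start of KEAP1 54 and 31 bases before it, and those at the first start of TXNRD1 99 and 8 bases before it. The match at the second start of TXNRD1 began 102 bases and that of GPX2 122 bases before the start. The second match of KEAP1 and that of GCLM had the same 9 letters. The windows of NFE2L2, NQO1, GCLC and SRXN1 and the first window of KEAP1 held no match, which says only that these letters are not within them. As background, the response elements known for NQO1, GCLC and HMOX1 lie farther upstream than such a window. The AP-1 site TGACTCA (searched on both strands; its reverse complement is TGAGTCA), which can overlap a response element, had 0 matches in the 11 windows and was held by 4.95% of all windows. A match is a description of the letters and not a measured binding site.

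**Figure D2:**
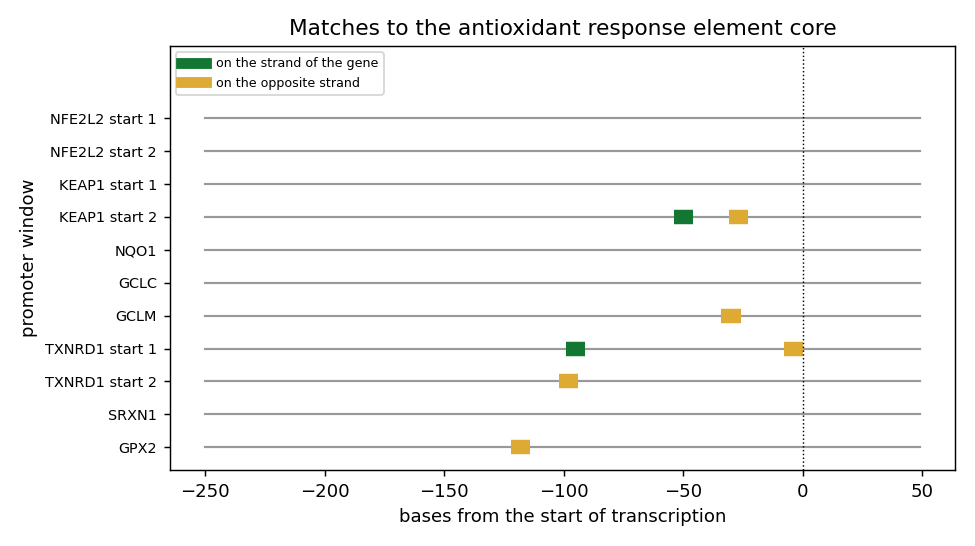
Promoter windows of 8 members (rows, 11 windows) from 250 bases before to 50 bases after the start of transcription (x axis, bases; dotted line at the start), with matches to the core of the antioxidant response element drawn to scale, green on the strand of the gene and yellow on the opposite strand. The 7 matches fall in 5 windows, all beginning before the start.

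The 251 bases up to and including the start are shown for the 2 subunit genes of glutamate cysteine ligase, which moved in opposite directions, and for the first start of TXNRD1, the member that rose most. The second start of TXNRD1, which also held a match, is not shown at this length. Counts per gene do not tie the rise to either start. Among the members not shown, KEAP1 fell with 2 matches at its second start, and SRXN1 rose with no match in its window. Whether the core goes with the direction of change was not tested. Capitals mark the core. They lie at chr1:93909430-93909680, minus strand (GCLM), chr6:53545101-53545351, minus strand (GCLC), and chr12:104215529-104215779, plus strand (TXNRD1).
GCLM, higher in the knockdown: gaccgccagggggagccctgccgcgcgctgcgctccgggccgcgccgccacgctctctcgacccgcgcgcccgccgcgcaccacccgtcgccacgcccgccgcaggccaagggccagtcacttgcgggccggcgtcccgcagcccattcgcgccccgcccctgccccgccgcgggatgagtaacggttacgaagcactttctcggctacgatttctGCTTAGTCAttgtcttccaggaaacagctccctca
GCLC, lower in the knockdown: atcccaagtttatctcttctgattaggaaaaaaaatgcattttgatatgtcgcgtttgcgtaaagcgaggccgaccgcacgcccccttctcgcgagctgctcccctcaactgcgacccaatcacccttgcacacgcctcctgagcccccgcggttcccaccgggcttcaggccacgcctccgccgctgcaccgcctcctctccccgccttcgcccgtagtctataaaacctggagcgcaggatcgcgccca
TXNRD1, higher in the knockdown: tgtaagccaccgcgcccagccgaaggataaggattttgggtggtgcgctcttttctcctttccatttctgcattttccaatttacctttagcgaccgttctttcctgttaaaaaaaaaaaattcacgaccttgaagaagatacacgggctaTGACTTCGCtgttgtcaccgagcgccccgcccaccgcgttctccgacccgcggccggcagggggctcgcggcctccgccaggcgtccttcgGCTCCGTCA

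NFE2L2, which encodes NRF2 itself (gene ID 4780; GRCh38.p14 chromosome 2, 177230303 to 177264727), was at 191, 191 and 176 CPM in the controls and at 175, 175 and 180 CPM in the knockdown. The groups overlapped, with control replicate 3 among the knockdown libraries. The means were 186 ± 8.62 and 177 ± 3.07 CPM (SD, 3 libraries a group), and the log2 fold change was −0.08 (SE 0.0453, 95% interval −0.18 to 0.02, edgeR adjusted p = 0.159). Without control replicate 3 the difference passed, at −0.12 (edgeR adjusted p = 0.00104; range over the alternatives 0.00104 to 1). The genes whose log2 CPM followed NFE2L2 most closely over the 6 libraries were MCU, CD47 and VDAC3 (Pearson r = 0.99 each), and 148 of 12373 genes reached 0.95. With 6 libraries that share their scaling this is a description only.

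KEAP1, the inhibitor (gene ID 9817; chromosome 19, 10486125 to 10503356), was at 79.7, 76.9 and 91.5 CPM in the controls and at 56.2, 54.0 and 52.0 CPM in the knockdown. Every knockdown library lay below every control, and control replicate 3 was the highest of the 6. It fell from 82.7 ± 7.73 to 54.1 ± 2.09 CPM (SD, 3 libraries a group), a fitted difference of −0.61 in log2 units (SE 0.0666, adjusted p by edgeR = 1.00e-05), or 65.4% of the control level. Set against a minimum change of 1.5-fold, the fall did not pass (edgeR glmTreat adjusted p = 0.52).

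Per length, KEAP1 transcripts were fewer than NFE2L2 transcripts in all 6 libraries. The ratio of KEAP1 to NFE2L2 in deposited RPKM (read counts corrected for gene length and library size) was 0.464, 0.448 and 0.578 in the controls and 0.358, 0.344 and 0.322 in the knockdown. Every knockdown library was below every control, with means of 0.497 ± 0.0709 and 0.341 ± 0.0186 (SD, 3 libraries a group). The difference of −0.53 on the log2 scale reached p = 0.1 in an exact two-sided permutation test, the smallest possible, and was −0.42 without control replicate 3.

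**Figure D3:**
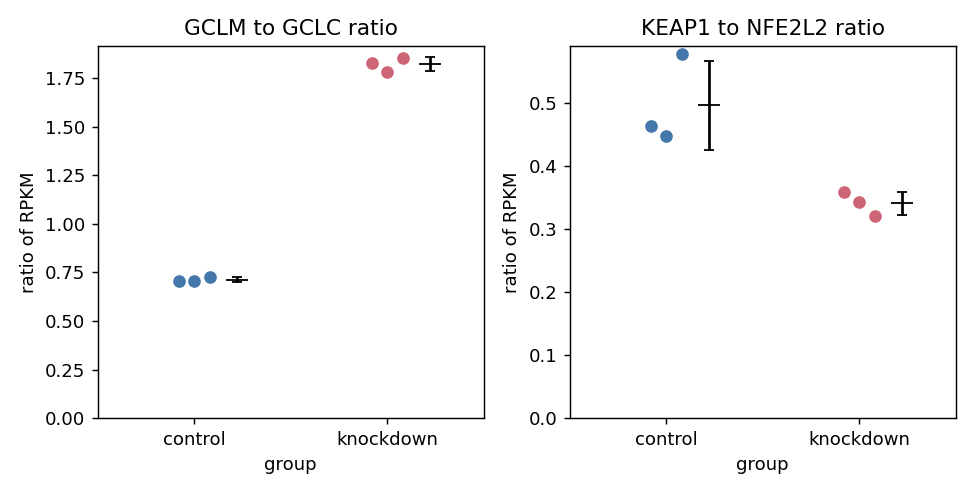
Ratio of deposited RPKM in each library (points) with mean and SD (bars, 3 libraries a group), for GCLM to GCLC on the left and KEAP1 to NFE2L2 on the right; both axes start at 0. The GCLM to GCLC ratio lies at 0.705 to 0.727 in the controls and 1.78 to 1.86 in the knockdown.

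Among the enzymes, HMOX1 showed the largest change of the members. It encodes heme oxygenase 1, which opens the heme ring to biliverdin and releases iron and carbon monoxide (gene ID 3162; chromosome 22, 35381096 to 35394207). The controls had 285, 286 and 327 CPM and the knockdown libraries 60.4, 56.7 and 61.1 CPM. The lowest control was above the highest knockdown library by a wide margin. HMOX1 fell from 299 ± 23.9 to 59.4 ± 2.37 CPM (SD, 3 libraries a group), a fitted difference of −2.33 in log2 units (SE 0.0619, adjusted p by edgeR = 3.00e-10), or 19.8% of the control level. Of all tested genes 0.487% had a lower log2 fold change.

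GCLC and GCLM encode the catalytic and the modifier subunit of glutamate cysteine ligase, the rate-limiting enzyme of glutathione synthesis. GCLC (gene ID 2729; chromosome 6, 53497341 to 53545101) was at 109, 108 and 100.2 CPM in the controls and at 50.6, 51.1 and 50.4 CPM in the knockdown. The knockdown libraries were close to each other and all below the controls. GCLC fell from 106 ± 4.68 to 50.7 ± 0.388 CPM (SD, 3 libraries a group; −1.06 on the log2 scale, SE 0.0480, adjusted p by edgeR = 1.11e-08). GCLM (gene ID 2730; chromosome 1, 93885199 to 93909430) went the other way, from 64.8, 64.2 and 61.4 CPM in the controls to 77.8, 76.9 and 78.8 CPM in the knockdown. All knockdown libraries were above all controls, and the rise was small: 63.5 ± 1.77 to 77.9 ± 0.968 CPM (SD, 3 libraries a group; 0.30 on the log2 scale, SE 0.0450, adjusted p by edgeR = 0.000143).

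The balance of the 2 subunit transcripts turned over. The ratio of GCLM to GCLC in RPKM was 0.705, 0.708 and 0.727 in the controls and 1.82, 1.78 and 1.86 in the knockdown. GCLC was the more abundant per length in every control and GCLM in every knockdown library. The means were 0.713 ± 0.0120 and 1.82 ± 0.0362 (SD, 3 libraries a group), a 2.55-fold difference that reached p = 0.1 in an exact two-sided permutation test, the smallest possible. The level of a ratio rests on the gene lengths the authors used, whereas its change between groups does not.

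TXNRD1 encodes the cytosolic thioredoxin reductase, a selenoprotein that uses NADPH to keep thioredoxin reduced (gene ID 7296; chromosome 12, 104215779 to 104350307). Its level was 873, 869.5 and 796 CPM in the controls and 1989.7, 1951 and 2012 CPM in the knockdown. The groups lay far apart compared with the spread within each. TXNRD1 rose from 846 ± 43.5 to 1984 ± 31.0 CPM (SD, 3 libraries a group), a fitted difference of 1.23 in log2 units (SE 0.0462, 2.34-fold, adjusted p by edgeR = 3.37e-09), and 94.2% of tested genes had a lower log2 fold change. Counts per gene do not say which of its starts was used. EID3, a separate gene within its span, had 876 raw reads in the controls together and 337 in the knockdown. These sums were not scaled to library size, and the knockdown libraries were the deeper ones.

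SRXN1 encodes sulfiredoxin, which restores peroxiredoxins that peroxide has overoxidized (gene ID 140809; chromosome 20, 646615 to 653200). It was at 123, 119 and 119.6 CPM in the controls and at 148, 143 and 151 CPM in the knockdown, with no overlap. The rise was from 121 ± 2.23 to 147 ± 3.87 CPM (SD, 3 libraries a group; 0.29 on the log2 scale, SE 0.0420, adjusted p by edgeR = 9.73e-05).

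NQO1 encodes a quinone reductase that is widely used as a readout of NRF2 activity (gene ID 1728; chromosome 16, 69709401 to 69726560). The controls had 287, 279.9 and 274 CPM and the knockdown libraries 229, 218 and 231 CPM. All knockdown libraries were below all controls. NQO1 fell from 280.1 ± 6.46 to 226 ± 6.82 CPM (SD, 3 libraries a group), a fitted difference of −0.31 in log2 units (SE 0.0415, adjusted p by edgeR = 5.53e-05), or 80.8% of the control level. Set against the same minimum change of 1.5-fold, NQO1, GCLM and SRXN1 did not pass (edgeR glmTreat adjusted p = 1 for each) and HMOX1, GCLC and TXNRD1 did.

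GPX2, the glutathione peroxidase of gastrointestinal epithelium (gene ID 2877; chromosome 14, 64939158 to 64942745), was at the edge of detection. It had 1, 3 and 0 reads in the controls and 5, 0 and 5 in the knockdown, 4 and 10 in all. Where it had 0 reads, a level of up to 0.118 CPM (control replicate 3) or 0.110 CPM (knockdown replicate 2) is allowed, counting 3 reads as the limit and covering counting error only. No difference was detectable at this depth (edgeR adjusted p = 0.518 when no filter was applied). Its span lies within that of the read-through gene CHURC1-FNTB.

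The order of the members by level per length differed between the groups. In the controls HMOX1 (mean 182 RPKM) and TXNRD1 (178) were highest and overlapped, followed by NQO1 (103), NFE2L2 (54.0) and SRXN1 (43.3), then GCLC (26.8) and KEAP1 (26.7), which overlapped, and GCLM (19.1). In the knockdown TXNRD1 (422) stood alone at the top, followed by NQO1 (84.3), SRXN1 (53.6) and NFE2L2 (51.8), which overlapped, then HMOX1 (36.6), GCLM (23.7), KEAP1 (17.7) and GCLC (13.0). GPX2 was last in both, at 0.0399 and 0.0647 RPKM. Each tested member had 1332 to 76194 reads in a library. RefSeq lists antisense RNAs over NQO1, GCLC and TXNRD1 and a noncoding RNA over SRXN1; the sources used here do not say whether counting used strand, so reads from these cannot be told apart.

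**Figure D4:**
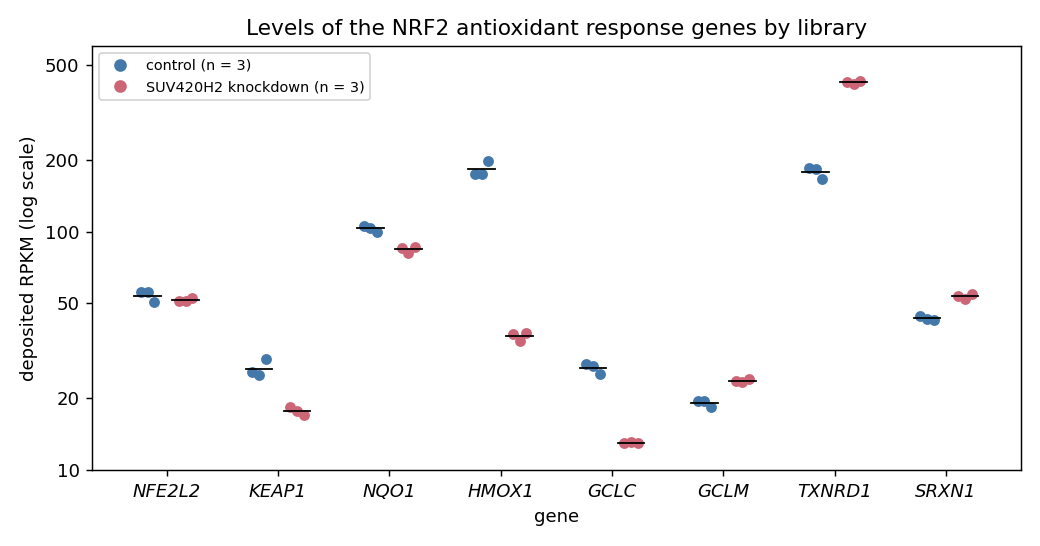
Deposited RPKM of the 8 tested members (x axis) in each library, on a log scale; points are libraries, control in blue and knockdown in red, and the black lines are means (3 libraries a group). HMOX1 drops from a mean of 182 to 36.6 RPKM while TXNRD1 goes from 178 to 422.

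Around the members, 9 lists of redox genes were examined, with 108 tested genes other than the members. Of these, 37 rose, 46 fell and 25 did not pass, so 76.9% were called against 67.3% of all tested genes. Without control replicate 3, 42 rose and 48 fell. Over all genes that fit called 5612 higher and 5665 lower, in place of 5028 and 5188. The counts of each list stand beside 33.1% higher and 34.2% lower over all tested genes, and nothing particular to a list is read from them. Their median log2 fold change was −0.04. A value given alone beside a gene of these lists is its fitted log2 fold change, knockdown over control.

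Of 15 genes that govern NRF2 or share its binding partners, besides NFE2L2 and KEAP1, 9 rose (60% against 33.1% of all tested genes) and 5 fell (33.3% against 34.2%). All 3 small MAF genes, whose products pair with NRF2 on DNA, were among those that rose. MAFF went from 6.30 ± 0.324 to 18.7 ± 0.696 CPM (1.56 on the log2 scale, SE 0.0782, adjusted p by edgeR = 2.33e-08), MAFG rose by 0.85 (SE 0.0462) and MAFK by 1.02 (SE 0.0651). BACH1, which binds the same elements and is a known repressor of HMOX1, rose from 32.9 ± 3.33 to 48.2 ± 0.355 CPM (0.55 on the log2 scale, SE 0.0707, adjusted p by edgeR = 3.82e-05). Set against a minimum change of 1.5-fold, the rise of BACH1 did not pass (edgeR glmTreat), and its part in the fall of HMOX1 was not tested. Those that fell were NFE2L3, a relative of NRF2 (−1.43, SE 0.0448), PALB2 (−0.92) and DPP3 (−0.52), which can bind KEAP1, and CUL3 (−0.27) and RBX1 (−0.33), the scaffold and RING subunit of the ligase that KEAP1 serves. GSK3B, a kinase that marks NRF2 for another ligase, did not pass (0.04). The others of this list that rose were BACH2 (1.04), BTRC (0.97), SYVN1 (0.53), NFE2L1 (0.29) and SQSTM1 (0.19).

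In the list of glutathione synthesis and recycling, 5 of 11 tested genes besides GCLC and GCLM rose (45.5% against 33.1% of all tested genes), 4 fell (36.4% against 34.2%) and 2 did not pass (GSS at −0.06 and GGT7 at 0.19). GSR, which reduces oxidized glutathione, rose from 55.7 ± 1.30 to 115 ± 1.38 CPM (1.05 on the log2 scale, SE 0.0435, adjusted p by edgeR = 6.06e-09), and GGCT, a cyclotransferase of glutathione breakdown, rose by 0.68 (SE 0.0479). The others that rose were SLC3A2, CHAC1 and GGT1, the last with near-identical copies and so uncertain. OPLAH, which returns oxoproline to glutamate, fell (−1.60, SE 0.110), as did the cystine carrier SLC7A11 (−0.35, SE 0.0529), CHAC2 (−0.41) and ABCC1 (−0.12). GGT1 no longer passed without control replicate 1 or 2 or knockdown replicate 1 or 2 (0.46 to 0.72), nor ABCC1 without control replicate 2 or knockdown replicate 3 (−0.11 each), and GGT7 passed without control replicate 3 (0.24).

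Of 17 tested peroxidases and transferases of glutathione, 5 rose (29.4% against 33.1% of all tested genes) and 9 fell (52.9% against 34.2%). Those that rose were GPX3, GSTP1, GSTZ1, GSTO1 and MGST2. The other 3 did not pass (GPX4 at −0.13, GPX7 at −0.25 and GPX8 at 0.03). GSTO1 no longer passed without control replicate 1 or 2 or knockdown replicate 1 or 3 (0.10 to 0.16), whereas GPX4 passed without control replicate 2 (−0.18) and GPX7 without control replicate 2 (−0.28) or knockdown replicate 2 (−0.35). GPX3, a secreted peroxidase, rose by 1.01 (SE 0.0580), whereas MGST1, a membrane transferase (−1.30, SE 0.0969), and GSTM3 (−1.05, SE 0.0543) fell. In the thioredoxin and peroxiredoxin list 8 of 18 genes besides TXNRD1 and SRXN1 rose (44.4% against 33.1%) and 7 fell (38.9% against 34.2%). The other 3 did not pass (PRDX5 at −0.12, GLRX at −0.02 and GLRX2 at −0.12). PRDX5 passed without control replicate 1 (−0.16) or 2 (−0.15). TXNIP, which binds and inhibits thioredoxin, fell from 21.9 ± 1.28 to 5.00 ± 0.484 CPM (−2.13 on the log2 scale, SE 0.0894, adjusted p by edgeR = 6.27e-09). The sestrins SESN3 (1.89, SE 0.163) and SESN2 (0.89, SE 0.0546) rose, and thioredoxin itself, TXN, fell (−0.34, SE 0.0526) while its reductase TXNRD1 rose.

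Of 10 tested genes of quinone and carbonyl detoxification besides NQO1, 5 rose (50% against 33.1% of all tested genes) and 3 fell (30% against 34.2%). Those that rose were CYB5R1 (1.08), EPHX1, UGDH, PTGR1 and CBR1. The other 2 did not pass (CBR3 at 0.24 and CBR4 at 0.01). CBR1 no longer passed without control replicate 1 or 2 or knockdown replicate 1 or 2 (0.15 to 0.17), and CBR3 passed without control replicate 3 (0.40). NQO2, the closest relative of NQO1, fell (−0.77, SE 0.0557), as did the aldose reductase AKR1B1 (−0.75, SE 0.0483) and AKR1A1, another aldo-keto reductase (−0.32). Further aldo-keto reductases known as NRF2 targets, AKR1B10, AKR1C1, AKR1C2 and AKR1C3, were below the filter, with 5, 1, 0 and 5 reads in the controls together and 7, 2, 0 and 5 in the knockdown. They have near-identical copies, whose counts unique alignment can lower.

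NADPH is the reductant that TXNRD1, GSR and NQO1 draw on. Of 13 genes of its supply 8 fell (61.5% against 34.2% of all tested genes) and 2 rose (15.4% against 33.1%). The other 3 did not pass (TKT at 0.08, TALDO1 at 0.07 and IDH1 at −0.04). Without control replicate 3 these 3 passed as well (0.15, 0.13 and −0.09), so that 9 fell and 4 rose. Over all genes 11277 passed without that library, in place of 10216. MTHFD2, a mitochondrial folate enzyme, fell from 429.5 ± 18.1 to 217 ± 5.45 CPM (−0.98 on the log2 scale, SE 0.0446, adjusted p by edgeR = 1.11e-08), as did the transhydrogenase NNT (−0.70, SE 0.0449) and the malic enzyme ME2 (−0.60, SE 0.0520). PGD, phosphogluconate dehydrogenase, was among those that rose (0.19, SE 0.0385).

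In the list of heme and ferritin genes, 4 of 8 besides HMOX1 fell (50% against 34.2% of all tested genes) and 2 rose (25% against 33.1%). The other 2 did not pass (FTH1 at 0.39 and FECH at −0.01). BLVRA, which reduces the biliverdin made by heme oxygenase, fell (−0.81, SE 0.0513), as did HMOX2, the constitutive heme oxygenase (−0.17, SE 0.0477), BLVRB (−0.23) and FTL (−0.91). SLC48A1, a heme importer, rose from a mean of 30.8 to 61.7 CPM (adjusted p by edgeR = 6.91e-08), and ABCB6, a porphyrin transporter, rose by 0.25 in log2 units (SE 0.0635). FTH1 stood at 413, 396 and 744 CPM in the controls and at 670, 715 and 649 CPM in the knockdown, so that control replicate 3 alone lay above the knockdown libraries. Without that library FTH1 passed, at 0.74, and BLVRB was at −0.13; BLVRB no longer passed without knockdown replicate 2 (−0.22) or 3 (−0.21). The ferritin genes FTH1 and FTL have many processed pseudogenes, so their values are uncertain.

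A further list held superoxide and peroxide scavengers outside the NRF2 core together with other genes, among them methionine sulfoxide reductases, PON2 and UCP2. Of its 11 tested genes, 6 fell (54.5% against 34.2% of all tested genes). Only MSRB1 rose, at 0.46 (9.09% against 33.1%). The other 4 did not pass: SOD1 (−0.09), CAT (0.01), OXR1 (0.09) and MSRB2 (0.02). SOD1 passed without control replicate 3 (−0.08). PON2, a paraoxonase of cell membranes, fell (−0.88, SE 0.0451), as did MSRB3, a methionine sulfoxide reductase (−0.49, SE 0.0479), and UCP2, a mitochondrial carrier (−0.42, SE 0.0425). Of 5 tested genes of NADPH oxidases and other oxidant sources edgeR called 0, against 67.3% of all tested genes. There were 0 at an unadjusted p under 0.05, 0 in DESeq2 and 0 in limma-voom. With no filter on low counts 1 passed, CYBA (−0.27 with the filter, −0.28 without). CYBA was at 60.5, 53.2 and 83.7 CPM in the controls and 52.9 to 57.6 CPM in the knockdown. It passed without control replicate 2 (−0.39) and was at −0.06 without control replicate 3, the highest library. The other 4 stood at 0.13 (NOX1), 0.11 (DUOX1), 0.00 (NOXA1) and −0.04 (NOXO1).

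**Figure D5:**
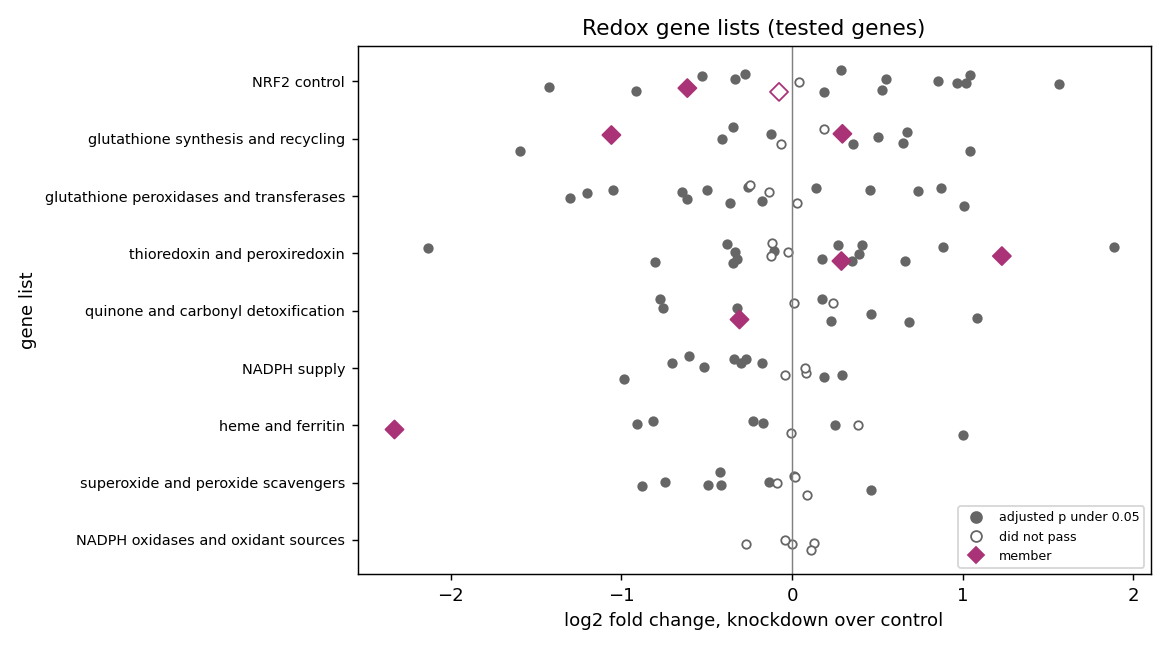
Log2 fold change (x axis, knockdown over control) of each tested gene in the 9 lists (rows); filled points passed at an adjusted p under 0.05, open ones did not, and diamonds are members. Vertical scatter within a row only parts the points. Rises and falls occur in 8 of the lists. The tested genes of oxidant sources lie at −0.27 (CYBA) to 0.13 (NOX1) and did not pass. Leaving out each library moved NOX1 between −0.14 and 0.42, so a change in it is not excluded.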

How the data were processed

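Per the submitters' processing notes, reads were aligned with GSNAP to GRCh38. Per the file headers, the authors deposited for each gene the count of uniquely aligned reads and a size-factor-adjusted RPKM; the sources used here do not name the annotation, strand setting or filters. The deposited RPKM equalled the counts times a library and a gene constant, and were used only for levels per length and ratios. Symbols came from RefSeq (GRCh38.p14) for 27814 of 30727 IDs and from GENCODE 29 for 20.

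Libraries were grouped by their siRNA label, 3 in each group, with 20863594 to 38022772 reads; replicate numbers are names only. The labels do not tie libraries to cultures, so p-values measure the spread between these libraries, which may be technical. No replicates were identical or agreed within sampling noise. Counts were filtered with filterByExpr (minimum count 10, total 15), TMM-scaled and tested with edgeR 4.0.16 (quasi-likelihood, two-sided) in R 4.3.3 over all 15190 genes, with Benjamini-Hochberg adjustment and a threshold of 0.05. SE is the log2 fold change over the root of its F. The code of the fit was tried on simulated counts, with few changed genes and the same spread in all libraries. Such counts cannot show its error rate under change as broad, and spread as unequal, as in these libraries.

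The members, lists and tests were chosen with earlier results of these data known. Named were the members, KMT5C, the 3 genes most like NFE2L2 and, per list, the 3 tested genes of smallest p that are no member and no near-identical copy; others, such as MAFK, BACH1, SLC7A11, TXN, HMOX2 and the genes given beside small counts, were named after their values were seen. Alternatives were DESeq2 1.42.0 size factors and Wald test, upper-quartile scaling, 2 other filters, limma-voom (limma 3.58.1), glmTreat against 1.5-fold, each library left out, and ratios of counts. For the genes named after their values were seen, and for the list counts without control replicate 3, these were added after the data were seen. BTRC, SYVN1, BACH2, NFE2L1 and SQSTM1 were not examined under the alternatives.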

Additional observations from a re-analysis of the deposited data

How the results depend on the processing

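Over 13 alternatives, 99 of 104 values of the 8 tested members kept their direction and their side of the threshold, and none reversed. With glmTreat against a 1.5-fold change, KEAP1, NQO1, GCLM and SRXN1 no longer passed, so that 3 of the members passed in place of 7; over all genes 2998 passed in place of 10216, 1606 higher and 1392 lower, since that test asks for a larger change. Without control replicate 3, NFE2L2 passed as well, so that 8 members did, and 11277 genes; the cause was not tested. Leaving out each library in turn gave 9184 to 11277 genes, 7 to 8 members, a log2 difference of 1.34 to 1.37 for the GCLM to GCLC ratio and of −0.60 to −0.42 for the KEAP1 to NFE2L2 ratio. Ratios of counts gave the same log2 differences, by construction. Of 1035 values of 80 other named genes, 925 kept direction and side, 57 no longer passed, 25 passed where they had not, and 28 changed sign. BTRC, SYVN1, BACH2, NFE2L1 and SQSTM1 are not among the 80. Of the 57, 29 were under glmTreat, KMT5C (adjusted p 0.305), BACH1, GGCT, ME2, ABCB6, MSRB3 and UCP2 among them. The sign changed in 11 genes, none of them past the threshold. Leaving out each library gave −0.14 to 0.42 for NOX1, −0.069 to 0.34 for DUOX1, −0.23 to 0.099 for NOXO1, −0.068 to 0.046 for NOXA1, −0.011 to 0.090 for GSK3B, −0.0083 to 0.062 for GPX8, −0.091 to 0.069 for GLRX, −0.041 to 0.040 for CBR4, −0.050 to 0.027 for FECH, −0.019 to 0.031 for CAT and −0.041 to 0.091 for MSRB2. FECH was also above 0 with DESeq2 size factors (0.0027), with a mean log2 CPM of at least 1 (0.0081) and in the DESeq2 Wald test (0.0027), and NOXA1 below 0 with no filter (−0.0038) and in limma-voom (−0.0029). CYBA passed with no filter (−0.28) and without control replicate 2 (−0.39), and was at −0.06 without control replicate 3. FTH1 passed with no filter (0.38), in limma-voom (0.45) and without control replicate 3 (0.74). No paired analysis was possible because the labels give no replicate numbers. GPX2 and the AKR1C genes had few reads; for the AKR1C genes, depth and reads lost to near-identical copies cannot be told apart.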
